A study of Mus musculus with 12 samples.

Results

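Total RNA of mouse kidney tubule cells that made the S42L mutant of human sex hormone-binding globulin (SHBG) was compared, under dihydrotestosterone (DHT), with that of cells that made wild-type human SHBG. The comparison takes the 3 arrays of each line under DHT, 6 of the 12 Illumina mouse bead arrays in the study, and all 6 lay on 1 chip. The other 6 arrays hold the same lines under testosterone, on a second chip, and are used only where stated, so androgen and chip cannot be told apart.

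PKSV-PCT, an immortalized proximal convoluted tubule line of the mouse, is the parent of both lines, and in each an SHBG cDNA was driven by the viral promoter of pRC/CMV. The S42L line was described as having no detectable steroid-binding activity. Each line came from limiting dilution cloning and was chosen by the SHBG found in its medium, so the variant cannot be told apart from the clone. S42L cells and wild-type cells both received 100 nM DHT for 24 h. The hormone is described as being followed by 3 days without steroid in the medium. Whether those days came after the hormone, in which case it was gone from the medium at harvest, or before it is in doubt, and "under DHT" names the treatment only. The stock medium of both lines held dexamethasone, insulin, triiodothyronine, EGF and a little serum, and no group without androgen was given. S42L arrays took the upper and wild-type arrays the lower positions of the chip, which cannot be told apart from the variant either. Whether the replicates were grown as separate cultures is not stated, so the spread that the p-values rest on, that among these arrays, may be technical.

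SHBG is the plasma protein that binds testosterone, DHT and estradiol and holds them outside the pool of free hormone. Megalin, an endocytic receptor of the proximal tubule, is known to take up proteins from the tubule fluid. DHT, formed from testosterone, is the more potent androgen, and androgens act on genes through paired DNA half-sites that glucocorticoids also use. The comparison addresses whether androgen-treated tubule cells differ in their transcripts when their SHBG can or cannot bind the steroid.

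Values below are normalized signals on a log2 scale, so that 1 unit is a 2-fold step, and differences are S42L minus wild type. Over the DHT arrays the mean raw signal ran from 560.2 to 678.7, and between 17610 and 19204 of 45281 probes were detected. Correlations of arrays over the tested probes were 0.9916 to 0.9948 within S42L cells, 0.9931 to 0.9933 within wild-type cells and 0.9766 to 0.9813 between the lines. The probes for mouse Shbg, for the kidney androgen-regulated gene Kap and for the megalin partner Cubn were detected on 0 of 12 arrays, and, as a mouse probe, that for Shbg does not check the human transgene. The glucocorticoid receptor probe (Nr3c1) was detected on 2 and the mineralocorticoid receptor probes (Nr3c2) on at most 1 of 12 arrays, in both cases on 0 of the DHT arrays. Srd5a1 was not analysed here. Of 32 proximal tubule markers on the array, 13 were detected on all 3 S42L arrays and 12 on all 3 wild-type arrays, whereas 15 were on no DHT array, among them the phosphate carrier Slc34a1, the anion transporters Slc22a6 and Slc22a8, and the gluconeogenic enzyme Fbp1.

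The lines differed in the transcripts of about 1 gene in 4. limma, with Benjamini-Hochberg adjustment over 19480 tested probes, called 4467 probes at an adjusted p under 0.05 (22.9%). Among 10340 genes, each read from its brightest probe, 2589 were called (25.0%), 1372 higher (13.3%) and 1217 lower (11.8%) in S42L cells. In 4850 genes (46.9%) the 3 S42L values and the 3 wild-type values did not overlap. A difference of at least 2-fold that was also called was found for 383 genes (3.70%), 260 higher (2.51%) and 123 lower (1.19%). Called genes were thus 53% higher in S42L cells, against 66.6% when array medians were equalized instead of all quantiles, with 702 genes then called lower.

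The genes furthest above wild type in S42L cells encode a matrix proteoglycan, a zinc importer, developmental and cilium-associated proteins and a tubule claudin. Slc39a4, encoding the zinc importer ZIP4, had 10.31, 10.45 and 10.39 in S42L cells, against 4.99, 5.34 and 5.68 in wild-type cells, where 2 of 3 arrays detected it. Dcn, the small matrix proteoglycan decorin, had 11.19, 11.02 and 10.87 in S42L cells, against 6.39, 6.11 and 6.23 in wild-type cells. Osr2, an odd-skipped zinc-finger transcription factor, had 10.43, 10.40 and 10.34 in S42L cells, against 5.75, 5.87 and 5.96 in wild-type cells. In each of these genes the S42L arrays sat more than 4 units above every wild-type array. Capsl (calcyphosine-like) had 11.16, 11.05 and 11.10 in S42L cells, against 6.87, 6.51 and 6.90 in wild-type cells. Fgfr2, a fibroblast growth factor receptor, had 9.58, 9.82 and 9.57 in S42L cells, against 5.95, 6.04 and 5.70 in wild-type cells. Cldn2, the cation-selective claudin of the proximal tubule, had 10.90, 11.28 and 10.92 in S42L cells, against 7.85, 7.80 and 8.01 in wild-type cells. The wild-type level of Cldn2 was clearly above background, so its difference of 3.15 ± 0.14 (SE) is a change between 2 measured levels.

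Fitted differences were 5.05 ± 0.17 for Slc39a4, 4.78 ± 0.15 for Dcn, 4.53 ± 0.14 for Osr2, 4.34 ± 0.13 for Capsl and 3.76 ± 0.12 for Fgfr2. The cytochrome P450 gene Cyp2d22 stood at 3.78 ± 0.14 and Pard6g, encoding a PAR6 cell polarity protein, at 3.21 ± 0.18. Of the 15 genes highest in S42L cells, 7 were undetected on all 3 wild-type arrays, so that only a bound can be given. Ppic, encoding cyclophilin C, was at least 23.8-fold higher, Nme5 of the nucleoside diphosphate kinase family at least 14.8-fold, Xlr4a at least 9.18-fold and the cilium-associated Cfap58 at least 7.37-fold. Scnn1a, the α subunit of the epithelial sodium channel, was at least 7.03-fold higher, Nrep at least 6.43-fold and the heparan sulfate proteoglycan Gpc3 at least 5.24-fold. The adjusted p of these 15 genes lay between 1.31e-10 and 5.11e-07. By place in the genome, 4 of the 15 lie on chromosome 15, 4 on chromosome 18 and 3 on the X chromosome.

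The genes furthest below wild type in S42L cells included enzymes of haem, cysteine and retinol metabolism and an adhesion molecule. Cox6a2, a cytochrome oxidase subunit typical of heart and muscle, had 4.42, 5.04 and 4.79 in S42L cells, against 7.96, 7.97 and 8.16 in wild-type cells, and 1 of 3 S42L arrays detected it. B4galnt2, a glycosyltransferase, had 5.62, 5.57 and 5.24 in S42L cells, against 8.53, 8.56 and 8.50 in wild-type cells. Hmox1, the haem-degrading enzyme haem oxygenase 1, had 8.03, 7.53 and 8.34 in S42L cells, against 10.19, 10.06 and 10.23 in wild-type cells. The S42L values of Hmox1 spread more widely than the wild-type values, but the lines did not overlap. Vcam1, a cell adhesion molecule, had 9.02, 9.30 and 9.47 in S42L cells, against 11.45, 11.38 and 11.29 in wild-type cells. Adh7, an alcohol dehydrogenase that also oxidizes retinol, had 9.26, 9.19 and 9.37 in S42L cells, against 11.37, 11.41 and 11.32 in wild-type cells. Cth, encoding the cysteine-forming enzyme cystathionine γ-lyase, had 6.23, 6.35 and 6.42 in S42L cells, against 8.31, 8.74 and 8.60 in wild-type cells. Hmox1, Adh7 and Cth were measured above background on every array of both lines.

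Fitted differences were -3.28 ± 0.26 for Cox6a2, -3.06 ± 0.16 for Prune2, -3.05 ± 0.16 for B4galnt2 and -2.88 ± 0.16 for Tlcd2. The ferritin receptor gene Timd2 stood at -2.59 ± 0.20, Itgb7, an integrin β chain, at -2.24 ± 0.13 and the annexin Anxa8 at -2.23 ± 0.15. The difference was -2.21 for Cth, -2.19 for Hmox1, -2.18 for Tnfaip2, -2.16 for the secreted Angptl6, -2.11 for the corneodesmosome gene Cdsn, -2.11 for Vcam1 and -2.09 for Adh7. Prune2 was detected on 2 and Timd2 on 1 of 3 S42L arrays, so their order is uncertain. Shisal1, undetected on all S42L arrays, was at least 3.15-fold lower. The adjusted p of these 15 genes lay between 1.41e-07 and 7.84e-05. All 30 genes at the extremes were called in the same direction under testosterone.

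**Figure D1:**
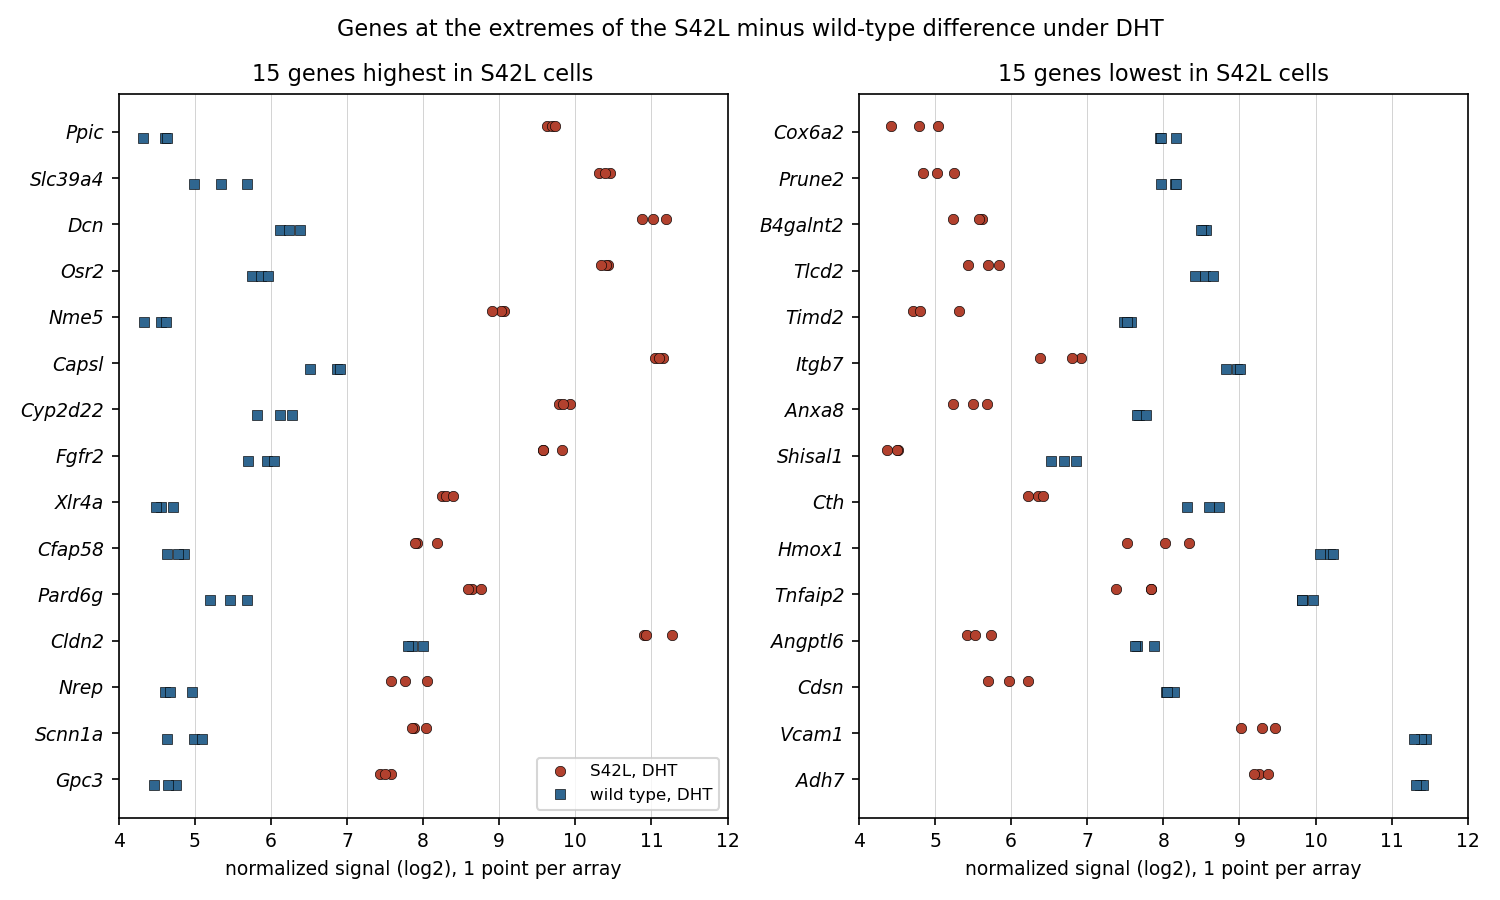
Normalized log2 signals (horizontal axis) of the 15 genes highest (left) and 15 lowest (right) in S42L cells, with 1 point per array, circles for S42L and squares for wild type under DHT. No gene has overlapping lines, and wild-type arrays of Ppic, Nme5, Xlr4a, Cfap58, Nrep, Scnn1a and Gpc3 lie at background, as do the S42L arrays of Shisal1.

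Tubule differentiation lists held more members higher than lower in S42L cells. Of 15 tested proximal tubule markers, 9 were higher and 1 lower, with a median difference of 0.61, beside 13.3% higher, 11.8% lower and a median of -0.0037 over all genes. Mme, the brush border peptidase neprilysin, had 9.92, 10.51 and 10.35 in S42L cells, against 8.92, 8.71 and 8.85 in wild-type cells, a difference of 1.43 ± 0.15 (adjusted p = 3.31e-05). The water channel Aqp1 was higher by 1.03 ± 0.15 and Amn, the cubilin partner amnionless, by 0.92 ± 0.10. Lrp2, encoding megalin itself, was higher by 0.42 ± 0.11 (adjusted p = 0.0203). The neutral amino acid transporter Slc6a19 was the lower member, at -0.48 ± 0.13. Over all 32 markers on the array, detected or not, the median was 0.083. The summed signal of the tested markers ran from 16588 to 18203 in S42L cells and from 12202 to 12885 in wild-type cells. Of 16 brush border genes, 6 were higher and 0 lower (median 0.38, and 0.047 over the 23 on the array), among them the membrane serine protease Tmprss2 at 1.38 ± 0.12 and the microvillus protein villin, Vil1, at 0.71 ± 0.11. Epithelial junction and polarity genes had 10 higher and 1 lower members among 41 (median 0.22). E-cadherin, Cdh1, had 9.11, 9.16 and 9.04 in S42L cells, against 6.85, 7.32 and 7.21 in wild-type cells, a difference of 1.98 ± 0.13. Esrp1, a splicing regulator of epithelial cells, was higher by 1.42 ± 0.10 and Tjp3, the tight junction protein ZO-3, by 1.28 ± 0.21, whereas the polarity gene Scrib was lower by -0.46 ± 0.15 (adjusted p = 0.0499).

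Injury markers of the tubule differed in both directions. Of 18 tested, 4 were higher and 8 lower (median -0.16). Havcr1, the injury molecule KIM-1, had 10.90, 11.30 and 11.36 in S42L cells, against 12.69, 12.87 and 12.76 in wild-type cells, and was lower by -1.59 ± 0.12 (adjusted p = 3.4e-06). Vcam1 and Sox9, a progenitor factor re-expressed in injured tubules (-0.90 ± 0.10), were also lower. Lcn2, the iron-siderophore carrier NGAL, went the other way, with 12.70, 12.50 and 12.37 in S42L cells, against 10.87, 10.80 and 10.78 in wild-type cells, a difference of 1.71 ± 0.11 (adjusted p = 9.25e-07). Prom1 (1.54 ± 0.14) and the copper oxidase ceruloplasmin, Cp (1.19 ± 0.18), were higher with it. Kidney developmental regulators had 8 higher and 0 lower members among 19 (median 0.31, and 0.135 over the 32 on the array), with Wnt4, a ligand of nephron formation, at 1.72 ± 0.16 and the homeobox gene Meis1 at 0.77 ± 0.11 beside Osr2 and Fgfr2.

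Cilium and flagellum genes had 26 higher and 3 lower members among 60 (median 0.33, and 0.161 over the 98 on the array). Nme5, Capsl and Cfap58 are among them, and Cfap126 was higher by 1.79 ± 0.16. The lower members were the transport gene Ttc21b (-0.80 ± 0.22), Cfap69 (-0.58 ± 0.11) and the BBSome gene Ttc8 (-0.36 ± 0.11). Lysosomal genes had 14 higher and 2 lower members among 40 (median 0.12), led by the carboxypeptidase cathepsin A, Ctsa (1.70 ± 0.24), cathepsin H, Ctsh (1.16 ± 0.20), and progranulin, Grn (0.87 ± 0.15). The sulfatase Sgsh (-0.48 ± 0.10) and cathepsin B, Ctsb (-0.36 ± 0.10), were lower. Drug-metabolizing enzymes had 14 higher and 6 lower members among 33 (median 0.38, and 0.047 over the 64 on the array). Cyp4b1 had 7.95, 8.11 and 8.36 in S42L cells, against 6.67, 6.70 and 6.99 in wild-type cells, while the glutathione transferases Gsta2 (-1.11 ± 0.14) and Gsta1 (-0.92 ± 0.13), which are close paralogs that a probe may not separate, were lower.

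Matrix and adhesion lists held members that differed both ways. Collagens and laminins had 9 higher and 2 lower members among 23, with a median of 0.31, or 0.18 with undetected genes at their bound and 0.041 over the 40 on the array. Decorin, fibulins and small matrix proteoglycans had 5 higher and 2 lower members among 18 (median 0.08). The type IV collagen chains Col4a3 (1.64 ± 0.26) and Col4a4 (1.63 ± 0.16), which assemble together in basement membranes, were higher, and Lama1 was at least 2.34-fold higher. Lamb3, a laminin β chain, was lower at -1.07 ± 0.14. Integrins had 3 higher and 7 lower members among 23 (median -0.14), with Itgb6 at 0.97 ± 0.15, and with Itga3 (-0.73 ± 0.10) and Itga2 (-0.72 ± 0.15) below wild type beside Itgb7. Markers of fibroblasts, endothelium, podocytes and immune cells had 7 higher and 0 lower members among 12 tested (median 0.53, and -0.001 over the 31 on the array). Their summed signal ran from 5734 to 6518 in S42L cells and from 2536 to 2624 in wild-type cells. Dcn, part of this sum, had a mean of 11.03 in S42L cells and 6.24 in wild-type cells on the log2 scale. Of the 31 on the array, 13 were on no DHT array, including the fibroblast markers Pdgfra, Pdgfrb, Col3a1 and Lum and the leukocyte marker Ptprc. Distal nephron markers had 3 higher and 0 lower members among 15 tested, with summed signals of 53734 to 55380 in S42L cells and 50646 to 54296 in wild-type cells. The part of these marker genes in the other differences was not tested, and in bulk RNA more cells of a type and more RNA per cell cannot be told apart.

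Among proliferation genes, those called were nearly all lower in S42L cells. Of 66 cell cycle and DNA replication genes, 25 were lower, 1 was higher and 40 were not called (median -0.35). Ccnd1, cyclin D1, had 13.32, 13.32 and 13.51 in S42L cells, against 14.24, 14.31 and 14.21 in wild-type cells, a difference of -0.87 ± 0.09 (adjusted p = 5.55e-05). Cyclin D2, Ccnd2, was lower by -1.36 ± 0.17 and the replication factor Gins1 by -0.86 ± 0.14. Ccne1, cyclin E1, was the higher member, with 7.73, 7.48 and 7.64 in S42L cells, against 6.66, 6.95 and 7.06 in wild-type cells. Genes of the p53 and Rb pathways and cell cycle inhibitors had 12 lower and 1 higher members among 32 (median -0.26), with Plk3 at -1.17 ± 0.21, Rrm2b at -0.89 ± 0.12 and Gadd45a at -0.75 ± 0.11 lower and Gadd45b at 0.53 ± 0.09 higher. Feedback genes of MAP kinase signalling had 9 lower and 2 higher members among 20 (median -0.36). The MAP kinase phosphatases Dusp10 (-1.58 ± 0.33), Dusp5 (-1.44 ± 0.13) and Dusp4 (-0.95 ± 0.13) were lower, while the receptor-blocking gene Errfi1 was higher by 0.53 ± 0.13 and Il17rd at least 1.64-fold higher. The EGF receptor family and its ligands had 4 lower and 2 higher members among 12 (median -0.06), with the ligands Hbegf at -1.21 ± 0.12, Btc at -1.04 ± 0.16 and Nrg1 at -0.86 ± 0.15, while the receptor gene Erbb2 was higher by 0.53 ± 0.12.

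The amino acid stress response had more members lower in S42L cells than any other list in the plot of lists. ATF4 is a transcription factor made under amino acid shortage and endoplasmic reticulum stress, and it raises genes of amino acid synthesis, uptake and tRNA charging. Of 50 ATF4 response and tRNA synthetase genes, 26 were lower and 1 higher (median -0.43). Trib3, a pseudokinase that restrains AKT, had 10.38, 10.38 and 10.42 in S42L cells, against 11.87, 11.84 and 12.02 in wild-type cells, a difference of -1.51 ± 0.10 (adjusted p = 8.73e-07). Ddit3, encoding the factor CHOP, had 9.09, 8.69 and 8.68 in S42L cells, against 10.10, 10.19 and 10.21 in wild-type cells. Slc7a11, the cystine importer, had 6.49, 6.47 and 6.57 in S42L cells, against 8.15, 7.97 and 8.10 in wild-type cells. These genes and Cth separated the lines by more than 1 unit on every array. The glutamine carrier Slc38a2 was the higher member, at 0.43 ± 0.10 (adjusted p = 0.0104).

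Related stress lists held members that moved both ways. NRF2 and glutathione genes had 12 lower and 7 higher members among 43 (median -0.11). Hmox1, Slc7a11 and Osgin1 (-1.11 ± 0.21) were lower, and the secreted glutathione peroxidase Gpx3 was higher by 1.32 ± 0.09. The carbonyl reductase Cbr3 (1.48 ± 0.21) and superoxide dismutase Sod1 (0.55 ± 0.10) were also higher, and both lie on chromosome 16. NF-kB targets and chemokines had 12 lower and 4 higher members among 37 (median -0.22), with Tnfaip2 and Icam1 (-1.17 ± 0.17) lower and Nfkbiz (1.27 ± 0.10) higher. Interferon response genes had 13 higher and 3 lower members among 38 (median 0.14), with Ifit3 at 1.61 ± 0.13 and the GTPase gene Irgm2 at 1.44 ± 0.14 higher, and the chemokine Cxcl10 at -0.70 ± 0.16 lower. Iron handling genes had 10 lower and 4 higher members among 26 (median -0.17). Cholesterol and fatty acid synthesis genes had 9 lower and 3 higher members among 36 (median -0.10), and HSP90 and heat shock chaperones lower in 9 and higher in 4 of 45 (median -0.11).

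Large housekeeping lists had few members called. Cytosolic ribosomal protein genes were higher in 2, Rpl22 (0.66 ± 0.09) and Rpl24, and lower in 1, Rpl30, of 54 (median 0.00). Respiratory chain genes had 6 higher and 4 lower members among 69 (median 0.05, and -0.02 without S42L replicate 1), with Cox6a2 far outside the others, which ran no lower than Uqcrq at -0.57 ± 0.12 among those called. Proteasome genes had 1 higher and 2 lower members among 37. Sugar, phosphate and organic ion carriers had 0 higher and 1 lower members among 27, namely Slco3a1. Grouped by symbol with no chosen list, 44 families of at least 20 tested genes had medians between -0.23 and 0.18. Over all genes, 13.3% were higher and 11.8% lower. The families named next were picked from the 44 by their counts, and none was tested. Among 27 sorting nexins (Snx) 8 were higher and 0 lower, among 22 Dnajc cochaperones 5 and 0, and among 70 coiled-coil genes (Ccdc) 16 and 4. Among 56 protein phosphatase genes (Ppp) 1 was higher and 9 lower, among 43 translation initiation factors (Eif) 1 and 8, and among 38 deubiquitinases (Usp) 2 and 8. Nearer to the shares over all genes, 21 of 190 solute carriers (Slc) were higher (11.1%) and 29 lower (15.3%). Of 217 zinc-finger genes (Zfp), 19 were higher (8.76%) and 20 lower (9.22%).

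**Figure D2:**
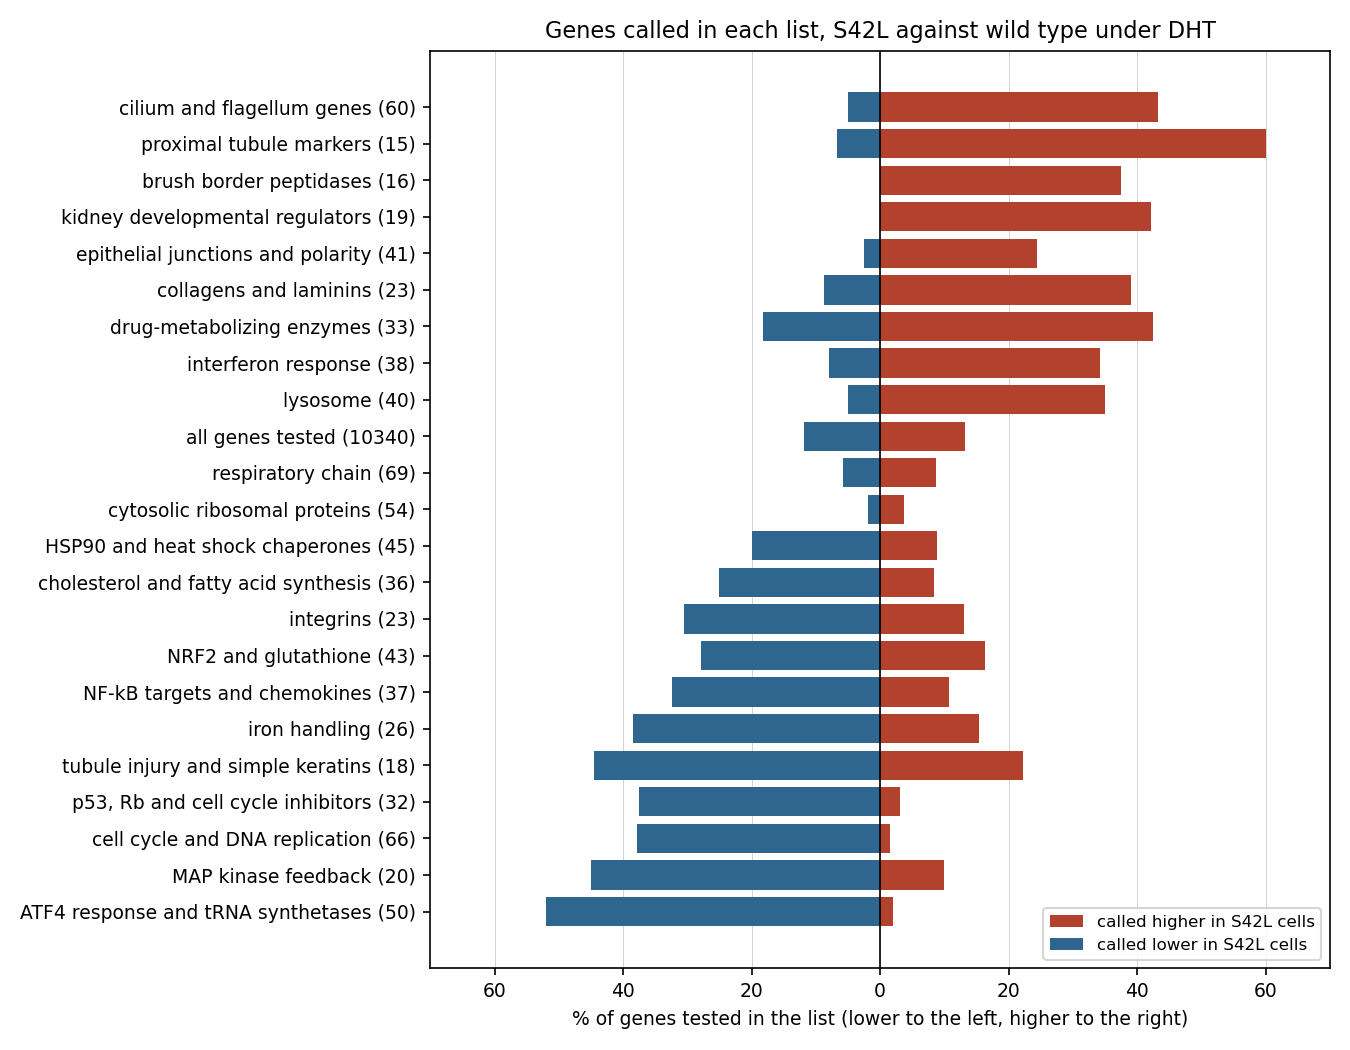
Percent of tested genes called higher (right, red) and lower (left, blue) in S42L cells under DHT in 22 gene lists and over all genes, with the number tested in brackets. Cilium, tubule, junction and lysosome lists reach further to the right than all genes (13.3% higher), and cell cycle, MAP kinase feedback and ATF4 lists further to the left than all genes (11.8% lower).

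Steroid-responsive genes showed no common direction. Kidney androgen-responsive genes had 4 higher and 3 lower members among 14, with a median of 0.23 that was -0.01 without genes of chromosomes 4, 14 and 16. Aoc1, diamine oxidase, had 12.51, 12.86 and 12.57 in S42L cells, against 11.17, 11.32 and 11.16 in wild-type cells, and the sulfotransferase Sult1d1 was higher by 1.04 ± 0.11. Timd2, the alcohol dehydrogenase Adh1 and the collectrin gene Cltrn (-1.09 ± 0.15, detected on 1 of 3 S42L arrays) were lower. Odc1, ornithine decarboxylase, a classic androgen target of mouse kidney, had 13.94, 14.13 and 14.31 in S42L cells, against 13.98, 13.99 and 13.90 in wild-type cells (difference 0.17 ± 0.13, adjusted p = 0.394). The lines overlapped in Odc1, and likewise in Gusb, β-glucuronidase, at -0.01 ± 0.12 (adjusted p = 0.967). Androgen-response genes known from other tissues had 7 higher and 4 lower members among 25 (median 0.04), with Tmprss2, the metallothioneins Mt2 (1.18 ± 0.17) and Mt1 (0.88 ± 0.09) and the phosphatase Acpp higher, and the transporter Abcc4 (-1.15 ± 0.12) lower. Glucocorticoid-induced genes had 6 higher and 2 lower members among 23 (median 0.04, and -0.01 without chromosomes 4, 14 and 16). Fkbp5, a cochaperone induced by androgens and glucocorticoids, differed by 0.04 ± 0.11 (adjusted p = 0.849) and Tsc22d3, the leucine zipper gene GILZ, by 0.31 ± 0.12 (adjusted p = 0.0914). Hsd17b2, which oxidizes androgens, differed by -0.11 ± 0.21 (adjusted p = 0.752), Fos by 0.08 ± 0.12 (adjusted p = 0.684) and Hif1a by -0.33 ± 0.18 (adjusted p = 0.218). With 3 arrays a line, the 95% interval of a difference reached, in the median, 0.316 to either side, before adjustment over probes. Differences near or below that size may thus have gone uncalled.

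RefSeq promoter windows (mouse build GRCm38.p6, 250 bases before to 50 after a gene's start) were searched on both strands for letters of known binding motifs, with 8416 of the genes having a window. The exact paired androgen and glucocorticoid response element, 2 facing half-sites 3 bases apart, occurred in 1 of the 8416 genes (0.0119%). It was in 0 of 196 genes at least 2-fold higher and 0 of 82 at least 2-fold lower. A match this rare would mostly be missing from sets of this size in any case, so these counts decide nothing. The half-site AGAACA of this element was found in 14.8% of all genes, 15.8% of the 2-fold higher and 23.2% of the 2-fold lower genes. The AP-1 motif TGANTCA, bound by Fos and Jun factors, was found in 6.35% of all genes, 11.2% of the 2-fold higher and 17.1% (14 of 82) of the 2-fold lower genes. The ATF4 motif TGATGNAAT was in 0.558% of all genes and in 3 of 21 (14.3%) ATF4-list genes that were lower. The whole ATF4 list held it in a like share, 5 of 41 (12.2%), so the lower members did not stand out within the list. A match is a description of letters, not a bound site.

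The windows below are examples, in order of size for each motif, from genes lower in S42L cells. Each holds a match in the 250 bases before the start, and other genes with a match are not shown. The ATF4 examples were taken from the ATF4 list only. The AP-1 windows are shown because the 2-fold lower genes held those letters in a larger share than all genes did. The ATF4 windows are shown because the lower ATF4-list genes held the ATF4 letters in a larger share, as did the whole list. AP-1 matches are in capitals for Adh7 (chr3:138217523-138217772 on the plus strand), the chloride channel accessory gene Clca3b (chr3:144849303-144849552 on the minus strand), the cornified envelope gene Sprr1a (chr3:92485882-92486131 on the minus strand) and Ddit3 (chr10:127290543-127290792 on the plus strand). ATF4 matches are in capitals for the stress protein gene Nupr1 (chr7:126625471-126625720 on the minus strand) and the alanyl-tRNA synthetase Aars (chr8:111033592-111033841 on the plus strand).

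Adh7: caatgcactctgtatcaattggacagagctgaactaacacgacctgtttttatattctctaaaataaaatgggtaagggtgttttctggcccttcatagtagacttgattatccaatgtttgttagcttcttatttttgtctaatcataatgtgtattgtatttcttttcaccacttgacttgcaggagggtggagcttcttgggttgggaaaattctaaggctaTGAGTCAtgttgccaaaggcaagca
Clca3b: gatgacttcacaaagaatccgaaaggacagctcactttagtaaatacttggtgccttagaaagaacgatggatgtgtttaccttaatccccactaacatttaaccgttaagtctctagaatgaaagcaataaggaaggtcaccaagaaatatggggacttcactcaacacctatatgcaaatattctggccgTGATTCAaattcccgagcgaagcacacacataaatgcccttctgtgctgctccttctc
Sprr1a: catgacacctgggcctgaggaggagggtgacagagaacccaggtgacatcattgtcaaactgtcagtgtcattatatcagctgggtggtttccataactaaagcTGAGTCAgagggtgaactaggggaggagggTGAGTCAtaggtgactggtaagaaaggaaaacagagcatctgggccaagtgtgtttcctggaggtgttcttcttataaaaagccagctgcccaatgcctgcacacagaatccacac
Ddit3: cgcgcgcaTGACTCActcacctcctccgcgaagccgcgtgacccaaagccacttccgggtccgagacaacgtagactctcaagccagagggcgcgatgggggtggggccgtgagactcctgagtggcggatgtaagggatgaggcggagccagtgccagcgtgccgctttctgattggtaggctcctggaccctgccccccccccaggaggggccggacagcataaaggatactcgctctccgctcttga
Nupr1: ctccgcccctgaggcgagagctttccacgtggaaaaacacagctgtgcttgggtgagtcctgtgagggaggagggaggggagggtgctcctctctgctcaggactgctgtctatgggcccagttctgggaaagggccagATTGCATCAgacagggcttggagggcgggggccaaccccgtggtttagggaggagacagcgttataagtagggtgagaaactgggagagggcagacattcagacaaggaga
Aars: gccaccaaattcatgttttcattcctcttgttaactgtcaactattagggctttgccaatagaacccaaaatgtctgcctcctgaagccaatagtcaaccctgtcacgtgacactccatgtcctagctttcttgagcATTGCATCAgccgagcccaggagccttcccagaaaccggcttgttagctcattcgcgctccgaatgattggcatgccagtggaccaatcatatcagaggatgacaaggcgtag

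Sprr1a holds 2 AP-1 matches, 146 and 116 bases before its start, and the other AP-1 genes 1 each, 25 bases before the start in Adh7, 58 in Clca3b and 242 in Ddit3. Sprr1a had 7.64, 7.47 and 7.62 in S42L cells, against 8.93, 9.17 and 9.09 in wild-type cells, and Clca3b had 5.90, 5.97 and 6.06 in S42L cells, against 7.63, 7.79 and 7.73 in wild-type cells. The ATF4 matches lie 111 bases before the start in Nupr1 and 113 in Aars. Nupr1 was lower by -0.47 ± 0.14 (adjusted p = 0.0286) and Aars by -0.43 ± 0.10 (adjusted p = 0.0106), smaller differences than those of Trib3 and Ddit3.

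Differences between the lines were uneven over the genome. Of 325 tested genes on chromosome 16, 149 were higher (45.8%) and 3 lower in S42L cells, with a median of 0.36. Chromosome 14 showed the opposite, with 12 higher and 142 lower (43.3%) of 328 and a median of -0.34. The median of chromosome 16, relative to each gene's mean over the 6 arrays, was 0.16, 0.22 and 0.21 on the S42L arrays and -0.17, -0.19 and -0.20 on the wild-type arrays. That of chromosome 14 was -0.20, -0.16 and -0.16 on the S42L arrays and 0.18, 0.17 and 0.16 on the wild-type arrays. All 3 arrays of a line therefore showed the shift to a like extent. It ran along the whole of both chromosomes, since medians of consecutive blocks of about 50 genes were 0.29 to 0.44 in 6 blocks of chromosome 16 and -0.55 to -0.22 in 7 blocks of chromosome 14.

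Chromosome 4 changed partway along. In its first 9 blocks, 56 of 450 genes were higher (12.4%) and 52 lower, with block medians of -0.10 to 0.10. In its last 4 blocks, from Stx12 to Noc2l in RefSeq order, 109 of 200 were higher (54.5%) and 11 lower, with block medians of 0.36 to 0.55. Chromosome 17 had 101 higher and 18 lower of 516 genes (median 0.15). Shorter runs stood out on chromosome 2, where blocks 2 and 3 of 17 had medians of 0.23 and 0.34, and on chromosome 12, where the last 2 of 6 blocks both had -0.28. On chromosome 15 the blocks from the second to the seventh of 9 had medians of -0.23 to -0.12, between a first block at 0.19 and an eighth at 0.18. Taken whole, the autosomes other than 4, 14, 16 and 17 had medians between -0.10 and 0.03.

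Under testosterone the median was 0.37 on chromosome 16, -0.33 on chromosome 14 and 0.10 on chromosome 4, close to the values under DHT. Chromosomes 4, 14 and 16, the first part of chromosome 4 included, held 1303 of the 10340 tested genes and 20.6% of all called genes. Without them, 1046 genes were called higher and 1009 lower of 9037, and the lists above kept their sign in all but those named. MAP kinase feedback genes were then lower in 9 and higher in 0 of 17, and the ATF4 list lower in 26 and higher in 1 of 48. Whether the lines differ in chromosome copies, and what part that has in any gene's difference, was not tested.

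**Figure D3:**
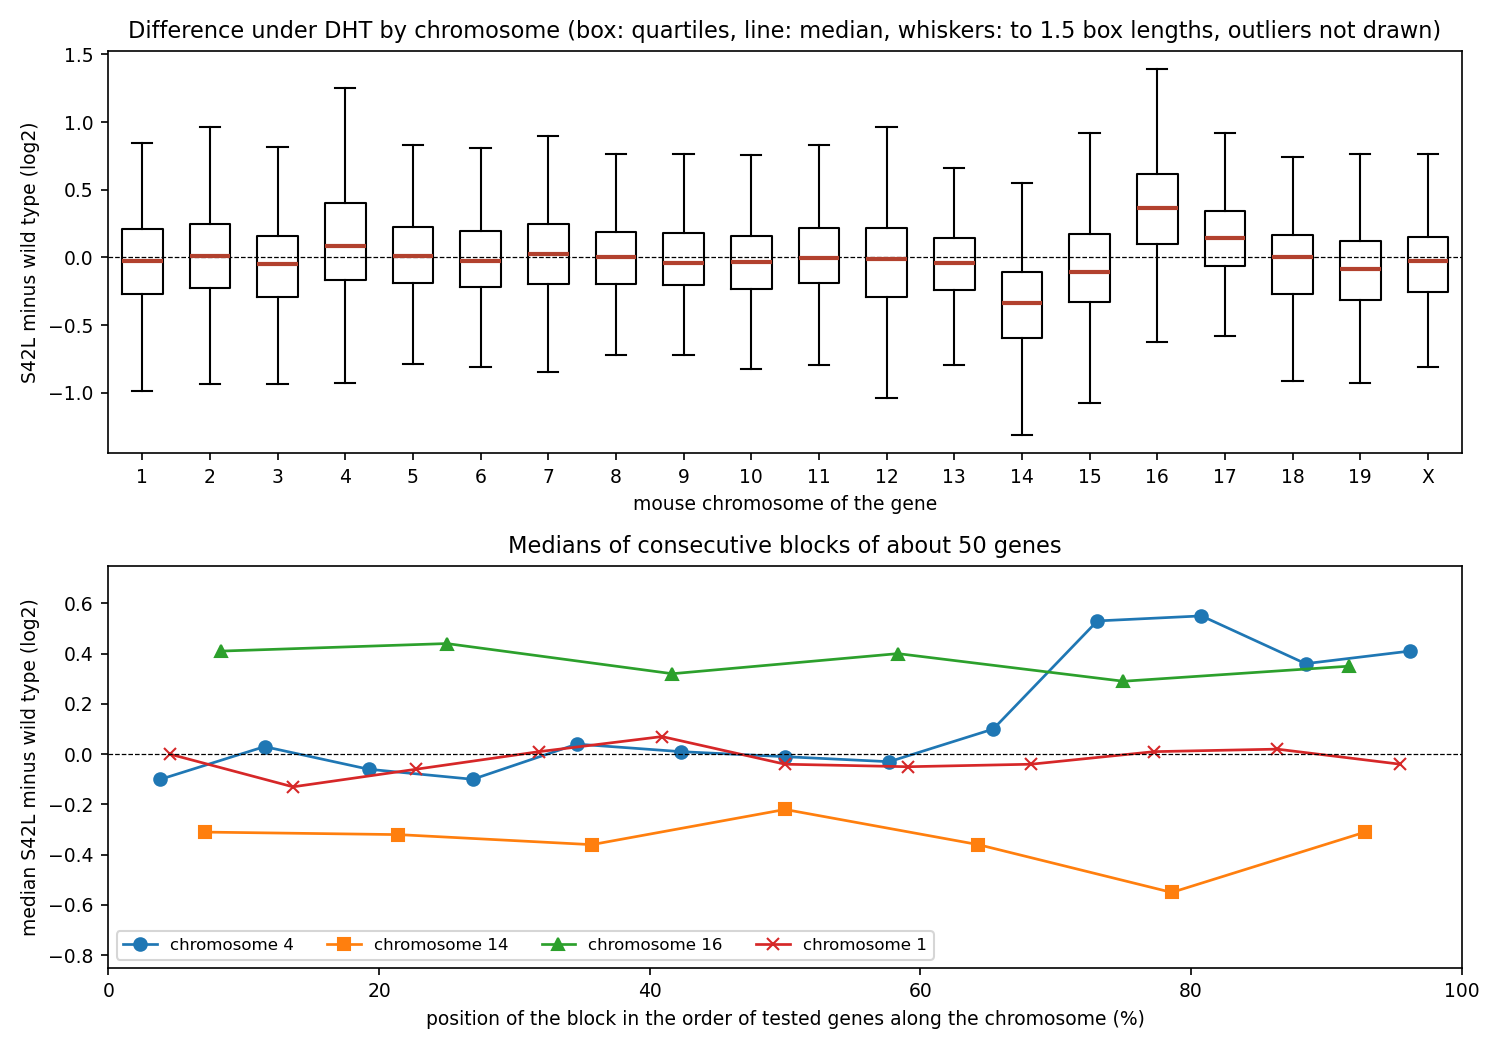
Top, S42L minus wild-type differences (log2) of tested genes by chromosome, with boxes at the quartiles. Bottom, medians of consecutive blocks of about 50 genes along chromosomes 4, 14, 16 and, for comparison, 1. Chromosome 16 lies above 0 and chromosome 14 below 0 in every block, and chromosome 4 lies at 0.36 to 0.55 in its last 4 blocks.

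Nearly all large differences under DHT were also found under testosterone, in arrays that share no sample with the DHT arrays but come from the same lines and lay on the other chip. Of 2589 genes called under DHT, 1924 (74.3%) were called the same way under testosterone, which is 71.9% of the 2676 genes called there. Another 663 (25.6%) were not called under testosterone and 2 were called the opposite way. Of the 383 genes at least 2-fold different under DHT, 372 (97.1%) were called the same way. When the difference under DHT was itself set against that under testosterone, limma called 1 of 19480 probes (0.00513%, or 0.00967% of genes), a probe of Egln3, with 905 probes (4.65%) at an unadjusted p under 0.05. No gene that was at least 2-fold different under DHT, and under 1/2 of that log2 size under testosterone, had this comparison called.

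By size alone, a rule applied after that result was seen, 13 of the 383 genes (3.39%) were less than 1/2 as large on the log2 scale under testosterone, 10 of them at an unadjusted p under 0.05. Cacna1d, a voltage-gated calcium channel gene, was higher by 1.08 ± 0.16 under DHT, with no overlap of the lines, and differed by 0.13 (adjusted p = 0.609) under testosterone. Its comparison between androgens gave 0.94 (adjusted p = 0.598). Ralgds, an exchange factor for Ral GTPases, differed by 1.20 under DHT and 0.32 under testosterone, the microvillus actin bundler Espn by 1.10 and 0.49, and Fam162a, a mitochondrial gene induced by low oxygen, by 1.04 and 0.49. Dnase1, the secreted endonuclease, differed by 1.39 and 0.65, Arhgef19 by 1.28 and 0.53, and the glucuronosyltransferase Ugt1a6b, which shares exons with its neighbours, by 1.02 and 0.31. Acpp, undetected on the wild-type DHT arrays, was at least 1.42-fold higher under DHT and differed by 0.28 under testosterone. Below wild type, the ferrireductase Steap3 was called under DHT and differed by -0.33 under testosterone. The sister chromatid cohesion gene Dscc1, undetected on the S42L DHT arrays, was at least 2.04-fold lower under DHT. Dscc1 differed by -0.59 (adjusted p = 0.0305) under testosterone. The remaining 3 were 4933433H22Rik, C330013E15Rik and Neurl2. All 13 had adjusted p of 0.598 or above for the comparison between androgens, so none is shown to be particular to DHT, and their number was 2 with the authors' processed table, 1 with an offset of 50, and 14 to 21 without 1 DHT array, the highest without wild-type replicate 1.

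**Figure D4:**
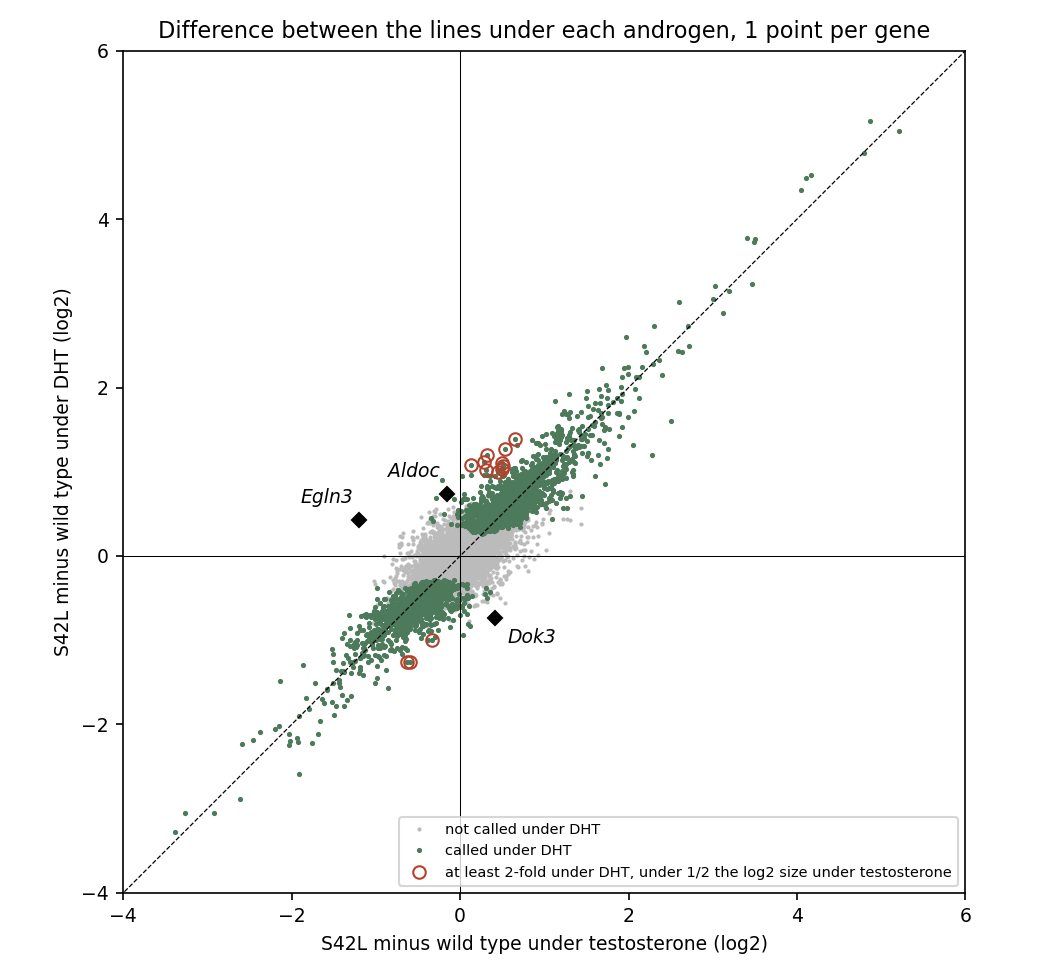
S42L minus wild-type differences (log2) under DHT (vertical) against testosterone (horizontal), 1 point per gene, with the dashed line where both are equal. Genes called under DHT follow the line, open circles mark the 13 genes less than 1/2 as large under testosterone, and Egln3 (0.43 and -1.20) and Dok3 (-0.74 and 0.42) were called in opposite directions.

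Egln3 encodes a prolyl hydroxylase that marks hypoxia-inducible factors for destruction and is itself raised by them. It had 8.40, 8.54 and 8.33 in S42L cells under DHT, against 7.99, 8.00 and 8.00 in wild-type cells, a difference of 0.43 ± 0.10 (adjusted p = 0.00919). Under testosterone it had 7.71, 7.78 and 7.95 in S42L cells, against 9.04, 8.93 and 9.07 in wild-type cells, a difference of -1.20 (adjusted p = 7.01e-06). S42L arrays were thus above all wild-type arrays under DHT and below all of them under testosterone, and the 2 differences stood 1.63 ± 0.14 apart (adjusted p = 0.00135). A second, dimmer probe of Egln3, detected on 7 of 12 arrays, differed by -0.20 under DHT (adjusted p = 0.48) and -0.28 under testosterone (adjusted p = 0.301). Dok3, an adaptor of immune receptor signalling, was lower by -0.74 ± 0.12 under DHT and higher by 0.42 under testosterone, but the comparison between them was not called (adjusted p = 0.121).

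Other genes of oxygen sensing and glycolysis did not pass this test. Of 32 glycolysis genes 8, and of 34 oxygen-sensing genes 7, had an unadjusted p under 0.05 for the comparison between androgens, beside 4.09% of all genes. Those 14 genes, 1 of them on both lists, include Egln3 and were looked at after their values were seen. The signed S42L minus wild-type value under DHT lay above that under testosterone in 11, Egln3 included, and below it in 3, whatever their sizes. Over all 62 genes of both lists, Egln3 again included, it lay above in 42, and the share over all genes was not counted. Aldoc, a glycolytic aldolase, had 10.95, 10.91 and 10.76 in S42L cells, against 10.11, 10.10 and 10.19 in wild-type cells under DHT, a difference of 0.74 ± 0.10 (adjusted p = 0.000249). Under testosterone Aldoc had 10.37, 10.39 and 10.23 in S42L cells, against 10.52, 10.54 and 10.40 in wild-type cells. That difference of -0.16 was not called (adjusted p = 0.279), nor was the comparison between androgens (adjusted p = 0.186). Hif3a differed by 0.96 ± 0.16 under DHT and 0.32 under testosterone. The pyruvate dehydrogenase kinase Pdk1 differed by 0.58 ± 0.11 and 0.22, the phosphofructokinase Pfkl by 0.45 and 0.02, and the enolase Eno2 by 0.20 and -0.41. Under DHT, glycolysis genes had 5 higher and 2 lower members among 32 (median 0.13) and oxygen-sensing genes higher in 8 and lower in 4 of 34 (median 0.08), so most were not called.

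The core of the hypoxia response element, ACGTG, was found in 29.6% of all genes with a promoter window. Among genes of both lists it was in 34 of 56 (60.7%). Of those with an unadjusted p under 0.05, Egln3 included, 6 of 13 (46.2%) held it. The Egln3 window is shown because this was the gene called, with its match in capitals, 229 bases before the start (chr12:54203875-54204124 on the minus strand).

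Egln3: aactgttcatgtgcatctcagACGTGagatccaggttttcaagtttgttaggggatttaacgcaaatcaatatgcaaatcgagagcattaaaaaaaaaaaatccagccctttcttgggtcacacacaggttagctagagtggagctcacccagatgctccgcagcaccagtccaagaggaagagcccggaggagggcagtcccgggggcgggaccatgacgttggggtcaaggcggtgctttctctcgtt

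**Figure D5:**
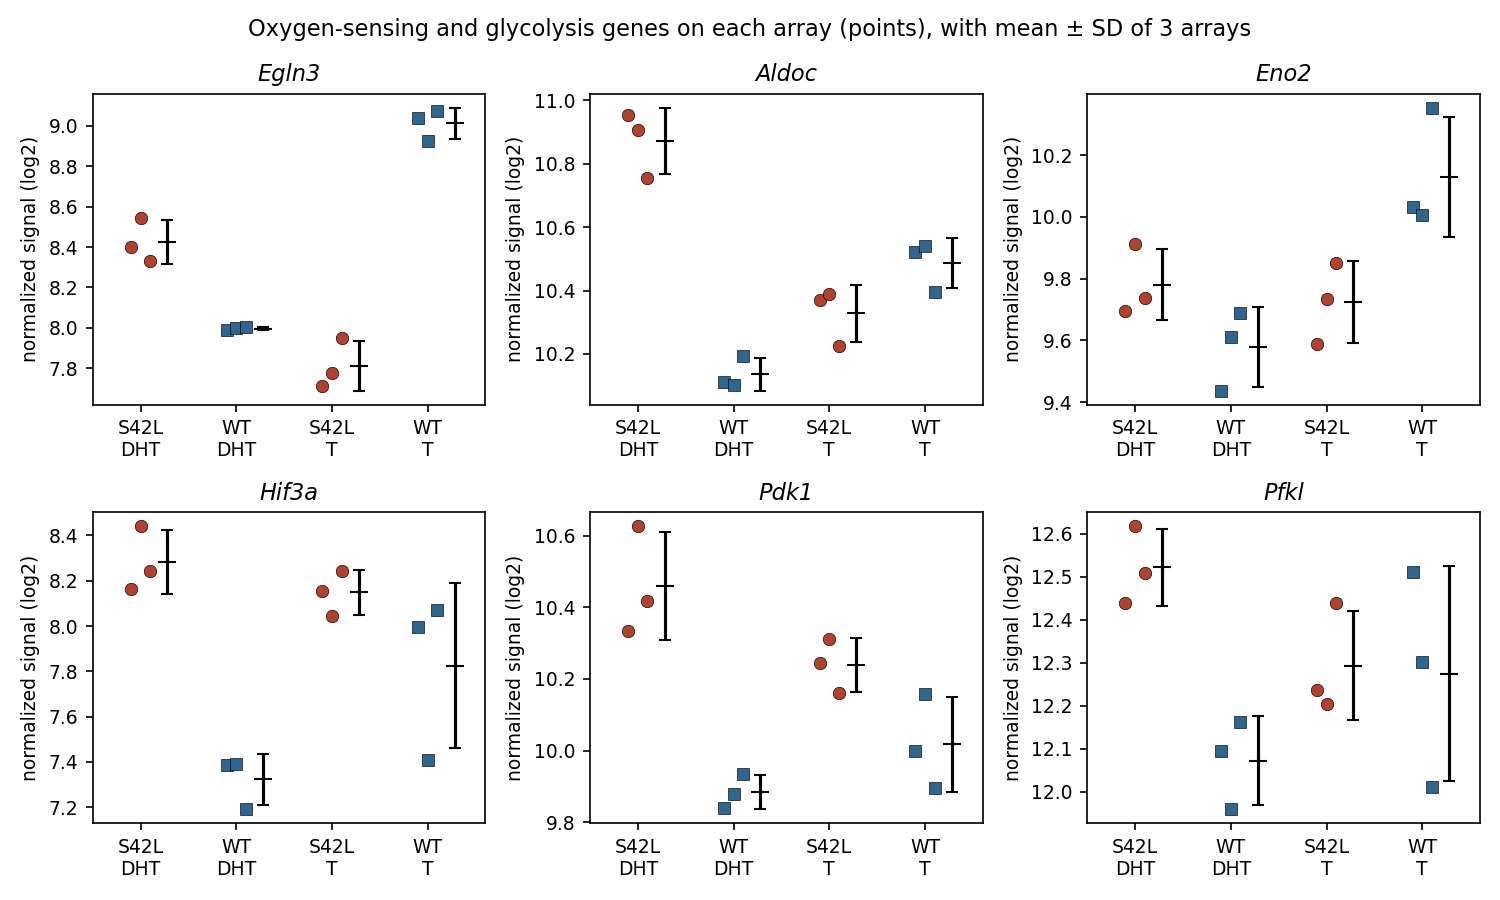
Normalized log2 signals of 6 oxygen-sensing and glycolysis genes on each array, S42L (circles) left of wild type (squares) under DHT and under testosterone (T), with the mean and SD of 3 arrays beside the points. Vertical axes differ between panels and do not start at 0. Egln3 is higher in S42L cells under DHT and lower in S42L cells under testosterone. Aldoc is higher in S42L cells under DHT, and its difference of -0.16 under testosterone was not called (limma, adjusted p = 0.279). For Aldoc the comparison between androgens was not called either.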

How the data were processed

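The 12 bead arrays measured total RNA, 3 for each pair of SHBG variant and androgen, and the 6 with DHT are compared here. Per the file headers, the deposited table lists for every probe the mean intensity of its beads on a linear scale, not normalized, and a detection p-value. The submitters' processing notes list BeadStudio. A second deposited table of the authors' processed intensity values, with medians of 6.8 or 6.9 on every array, was used as an alternative only. Judged by its values it is linear, with a minimum of -30.1, and how it was centred is unknown.

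The function neqc of limma 3.58.1 (R 4.3.3) estimated background from the detection p-values, added an offset of 16, equalized quantiles and took log2. Quantile normalization removes any shift common to most transcripts. Tested probes, 19480 of 45281, had 3 or more of the 12 arrays with a detection p under 0.05. lmFit and eBayes were fitted over all 12 arrays with 1 coefficient per group (8 residual and 4.32 prior degrees of freedom), with 3 two-sided contrasts and Benjamini-Hochberg adjustment over probes, called at an adjusted p under 0.05. The scripts were tested on simulated data. By the platform annotation 34885 probes carry 1 symbol, 18 several and 10378 none, and 34807 symbols matched RefSeq. A gene is its brightest tested probe. No gene named had another probe called the opposite way under DHT. A probe undetected on all arrays of a group is given as at least N-fold, the brighter mean against the mean, over the dim arrays, of the higher of its value and the lowest detected value.

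Genes named are the 15 highest and 15 lowest non-overlapping called genes, up to 4 called members in each direction of a list described and members opposite to it, genes whose difference itself differed between androgens, fixed genes, and those whose choice is stated. The lists (57, with 1558 tested genes) and members were chosen with earlier results of these data known, and no list test was run. The number of arrays limits precision.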

Additional observations from a re-analysis of the deposited data

Results flagged for a closer look

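Egln3 differed between the androgens in its S42L minus wild-type difference, by 1.63 on the log2 scale (adjusted p = 0.00135, limma), with 0.43 under DHT and -1.20 under testosterone. S42L arrays were above wild type in 3 of 3 under DHT and below in 3 of 3 under testosterone.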

How the results depend on the processing

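Of 340 named genes, 326 were called, no call was reversed under the 15 alternatives, and 267 genes kept both direction and side of the threshold under all of them. Replicate numbers are shared by the groups, but same-numbered arrays did not deviate together (r of -0.036, -0.044 and -0.01 for the 3 pairs). With the replicate number as a block, 1312 genes were called higher and 1159 lower, and 1 probe in the comparison between androgens. With median scaling 1208 probes and 702 genes were called lower. Genes at least 2-fold numbered 160 higher and 73 lower with the authors' processed table, and 143 higher and 63 lower with an offset of 50. The comparison between androgens called 2 probes with an offset of 50 and 2 with an intensity trend, Egln3 and Aldoc. Leaving out 1 DHT array, calls ranged from 3271 to 3689 probes (1709 to 1901 higher, 1537 to 1788 lower) and from 1059 to 1150 genes higher and 860 to 982 lower. The 2-fold genes ranged from 254 to 282 higher and 123 to 137 lower, the comparison between androgens stayed at 1 to 1 probe, and genes strong under DHT and weak under testosterone at 0 to 0. Egln3 was the probe called in each of these fits, with adjusted p up to 0.0097 without a DHT array and 0.0116 without a testosterone array. The cause of these shifts was not tested. The count without genes of chromosomes 4, 14 and 16 and the count by size alone were chosen after seeing the data.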
